A study of Mus musculus with 12 samples.

Results

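The mir-17-92 cluster and its paralogs were followed through small RNA libraries of mouse sperm and of TM4 cells, a mouse Sertoli cell line. The members were 10 miRBase hairpins chosen by name, of 1050 miRNA hairpins listed in the files: mmu-mir-17, mmu-mir-18a, mmu-mir-19a, mmu-mir-20a, mmu-mir-19b-1 and mmu-mir-92a-1 of the mir-17-92 cluster, mmu-mir-106b, mmu-mir-93 and mmu-mir-25 of the mir-106b-25 cluster, and mmu-mir-106a of the mir-106a-363 cluster. Sperm came from the epididymis of C57BL6/J males that started at 4 weeks of age on a control diet (CD, 16% of energy from fat) or a high-fat diet (HFD) and stayed on it for 7 weeks. Each diet had 3 libraries, and each library pooled 3 mice. The labels give 69% of energy from fat for the HFD, and the written methods give a lower share. TM4 cells were non-treated (Ctrl), treated with 10 µM Compound C (CC), an inhibitor of the kinase AMPK, for 12 hours, or overexpressed the coding sequence of Ang, the gene of the ribonuclease angiogenin, from a plasmid (Ang OE), with 2 libraries each. No label states whether the TM4 libraries came from separate cultures, so p-values measure the spread between these libraries, which may be technical. A control for the plasmid was not analysed here, so the transfection itself and Ang cannot be told apart.

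The mir-17-92 cluster is transcribed as a single primary transcript that Drosha and Dicer cut into separate miRNAs. It is driven by MYC and E2F factors in dividing cells, is known as an oncogenic cluster, and its miRNAs repress inhibitors of growth and promoters of cell death such as Bim. The mir-106b-25 cluster lies in an intron of Mcm7, a subunit of the replicative helicase, and the mir-106a-363 cluster is a copy on the X chromosome. In the testis the mir-17-92 cluster is known from dividing spermatogonia and is needed for normal spermatogenesis.

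Each miRNA recognises its targets mainly through its seed, bases 2 to 8 from the 5′ end, and the 10 hairpins carry 4 seeds. The main mature miRNAs are shown because they show which members read the same targets and which members sequencing can hardly tell apart. All are from RefSeq on build GRCm38.p6, written 5′ to 3′ with the seed in capitals.
miR-17-5p: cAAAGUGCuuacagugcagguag
miR-20a-5p: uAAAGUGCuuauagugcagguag
miR-106a-5p: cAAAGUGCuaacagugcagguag
miR-93-5p: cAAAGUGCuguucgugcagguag
miR-106b-5p: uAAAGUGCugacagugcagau
miR-18a-5p: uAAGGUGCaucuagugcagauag
miR-19a-3p: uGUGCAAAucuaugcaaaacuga
miR-19b-3p: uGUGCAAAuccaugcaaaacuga
miR-92a-3p: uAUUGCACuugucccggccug
miR-25-3p: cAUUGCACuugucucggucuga

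The seed AAAGUGC is shared by miR-17, miR-20a, miR-106a, miR-93 and miR-106b, GUGCAAA by miR-19a and miR-19b, and AUUGCAC by miR-92a and miR-25, while miR-18a has a seed of its own. miR-17 and miR-106a differ at 1 of 23 positions, and so do miR-19a and miR-19b. The annotation allowed 1 mismatch, so reads of these pairs are uncertain to that extent. miR-19b is the same in mmu-mir-19b-1 and in mmu-mir-19b-2 of the X cluster, and the levels of these 2 hairpins differed by a ratio of 0.994 to 1.04 in the 12 libraries, since a read that matched both was divided between them. miR-92a is likewise the same in mmu-mir-92a-1 and mmu-mir-92a-2, whose hairpins differ from the base after it, as the 5 following bases in capitals show.
mir-92a-1: uauugcacuugucccggccugUUGAG
mir-92a-2: uauugcacuugucccggccugAGGAA

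The ratio of mmu-mir-92a-1 to mmu-mir-92a-2 was 5.51 to 7.13 in sperm and 8.29 to 10.6 in TM4 cells, so for this pair the reads were not divided evenly. The files give reads per hairpin and not per arm, so the mature miRNAs are named here as the main product known for each hairpin and not as a measured species.

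On GRCm38.p6 the 6 hairpins of mir-17-92 lie on the plus strand of chromosome 14 and span 836 bases, from mmu-mir-17 at chr14:115043671-115043754 to mmu-mir-92a-1 at chr14:115044427-115044506. RefSeq places the host gene Mir17hg, a long non-coding RNA, from 115044390 to 115046728 on chromosome 14, which holds only mmu-mir-92a-1 in full. The 3 hairpins of mir-106b-25 span 498 bases on the minus strand of chromosome 5, from mmu-mir-106b at chr5:138165737-138165818 to mmu-mir-25 at chr5:138165321-138165404, and lie within Mcm7, which runs from 138164583 to 138172111. mmu-mir-106a lies on the minus strand of the X chromosome at chrX:52742503-52742567.

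Clean reads numbered 31710445 to 41532413 per sperm library and 51457711 to 64038150 per TM4 library, of which 11412945 to 14822686 and 27651384 to 35704399 were miRNA reads. Levels are given as CPM, the reads per 1000000 miRNA reads of the library, with the mean ± SD. Sperm libraries held 8946 to 14327 CPM of 5 miRNA hairpins known from epithelium and 25239 to 50595 CPM of 4 known from red blood cells, against 1.28 to 2.38 CPM and 1762 to 2857 CPM in TM4 cells. Those of smooth muscle, nearly all mir-143, summed to 33595 to 50954 CPM in CD, 30611 to 56120 CPM in HFD and 49714 to 129039 CPM in TM4 cells. The 8 germ cell hairpins summed to 3140.2 to 8924 CPM in CD and 3374 to 4452 CPM in HFD. The highest sum was that of CD replicate 2, where mir-871 was at 4299 CPM, against 636 to 1702 CPM in the other sperm libraries. The 4 of white blood cells summed to 592 to 685 CPM in CD, 787 to 1435 CPM in HFD and 1210.1 to 1489 CPM in TM4 cells. In TM4 cells this last sum was nearly all mir-155, at 1207 to 1486 CPM, while mir-142a, mir-150 and mir-223 were each under 3 CPM, and the red blood cell sum was nearly all mir-486a and mir-486b, with mir-451a under 1 CPM. mir-202, a hairpin known from Sertoli cells, was at 0 to 0.178 CPM in TM4 cells, so this marker was nearly absent from the line that carries the label, and at 4.86 to 59.8 CPM in sperm. The part of other cells' RNA in the levels below was not tested, and in these bulk samples fewer cells of a type and less RNA per cell cannot be told apart. HFD replicate 1 stood apart from the other sperm libraries: over all hairpins its chi-square per degree of freedom against the other HFD libraries was 1140 and 1460, whereas the other sperm pairs of the same diet gave 257 to 312.

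The members made up a small and uneven share of the miRNA reads. Together the 10 hairpins took 0.469% to 0.809% of miRNA reads in sperm, 3.41% to 3.54% in Ctrl and CC and 2.16% to 2.37% in Ang OE. mmu-mir-92a-1 led the mir-17-92 cluster and mmu-mir-25 the mir-106b-25 cluster in each of the 12 libraries, so that the AUUGCAC seed held 79% to 88.7% of the members' reads in sperm and 67.5% to 76.6% in TM4 cells. Among all hairpins listed, mmu-mir-92a-1 ranked number 30 of 923 in CD sperm and number 13 of 796 in Ctrl cells, and mmu-mir-25 ranked 35 and 14. At the other end mmu-mir-106a had 2 to 6 reads in a sperm library and 59 to 102 in a TM4 library.

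mmu-mir-92a-1, whose product miR-92a is known as a repressor of vessel growth and of cell death genes, stood at 2321, 3302 and 2308 CPM in the CD libraries and at 3611, 1965 and 1853 CPM in the HFD libraries. It reached 14524 and 13454 CPM in Ctrl, 14818 and 14626 CPM in CC, and 6307 and 8128 CPM in Ang OE. The diets overlapped, Ctrl and CC lay close together, and Ang OE lay between sperm and the other TM4 cells. mmu-mir-25, which shares its seed, stood at 1961, 2637 and 2113 CPM in CD, 3562, 2140.2 and 1851 CPM in HFD, 12138 and 11891 CPM in Ctrl, 11568 and 12506 CPM in CC, and 8238 and 8910.0 CPM in Ang OE. The order of the groups was the same for both hairpins except that HFD lay above CD for mmu-mir-25, and the HFD and CD libraries overlapped for both.

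mmu-mir-17, which gives the cluster its name, stood at 55.2, 83.6 and 74.7 CPM in CD and at 69.3, 61.5 and 80.0 CPM in HFD. In TM4 cells it was at 1177 and 1193 CPM in Ctrl, 1082 and 1049 CPM in CC, and 1016 and 840.3 CPM in Ang OE. mmu-mir-18a, processed with the help of the RNA-binding protein hnRNP A1 in known work, was among the lowest of the cluster in sperm, with 9.73, 13.7 and 14.5 CPM in CD and 14.6, 12.1 and 12.5 CPM in HFD, yet reached 441 and 429.8 CPM in Ctrl. Both were over 10 times higher in each TM4 library than in any sperm library.

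The GUGCAAA miRNAs, miR-19a and miR-19b, are known as the main oncogenic part of the cluster in lymphoma. mmu-mir-19a was the lowest of the 6 hairpins of the cluster in each of the 12 libraries. It stood at 7.94, 6.66 and 9.46 CPM in CD, 4.88, 10.0 and 12.1 CPM in HFD, 82.8 and 74.4 CPM in Ctrl, 69.9 and 67.7 CPM in CC, and 140.9 and 135 CPM in Ang OE. mmu-mir-19a was one of the 2 hairpins highest in Ang OE. mmu-mir-19b-1 showed 49.3 ± 3.68 CPM in CD, 54.9 ± 15.6 CPM in HFD, 343 ± 13.0 CPM in Ctrl, 315 ± 3.17 CPM in CC and 307 ± 5.80 CPM in Ang OE (SD, n = 3 for sperm and n = 2 for TM4 cells). Added to mmu-mir-19b-2, with which it shares its reads, it came to 694 and 657 CPM in Ctrl. The other hairpin highest in Ang OE was mmu-mir-20a, of the AAAGUGC seed, at 39.8, 60.6 and 58.3 CPM in CD, 38.5, 55.2 and 63.8 CPM in HFD, 609 and 641 CPM in Ctrl, 503 and 524 CPM in CC, and 797 and 649 CPM in Ang OE.

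In the mir-106b-25 cluster, mmu-mir-93 showed 494 ± 104 CPM in CD, 568 ± 46.1 CPM in HFD, 4959 ± 79.3 CPM in Ctrl, 4899.7 ± 83.6 CPM in CC and 3609 ± 102 CPM in Ang OE (SD, n = 3 and 2). mmu-mir-106b, whose product represses the cell cycle inhibitor p21, showed 127 ± 16.6 CPM in CD, 152 ± 25.8 CPM in HFD, 993 ± 65.3 CPM in Ctrl, 1032 ± 83.1 CPM in CC and 790.3 ± 88.7 CPM in Ang OE. Within this cluster Ctrl and CC overlapped for all 3 hairpins, and Ang OE lay below both. mmu-mir-106a, with 0.192% to 0.620% of the reads of mmu-mir-17 in every library, was at 3.20 and 2.86 CPM in Ctrl, 2.33 and 2.13 CPM in CC, and 1.95 and 1.96 CPM in Ang OE. Its sperm values of 0.143 to 0.430 CPM rest on these few reads.

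**Figure D1:**
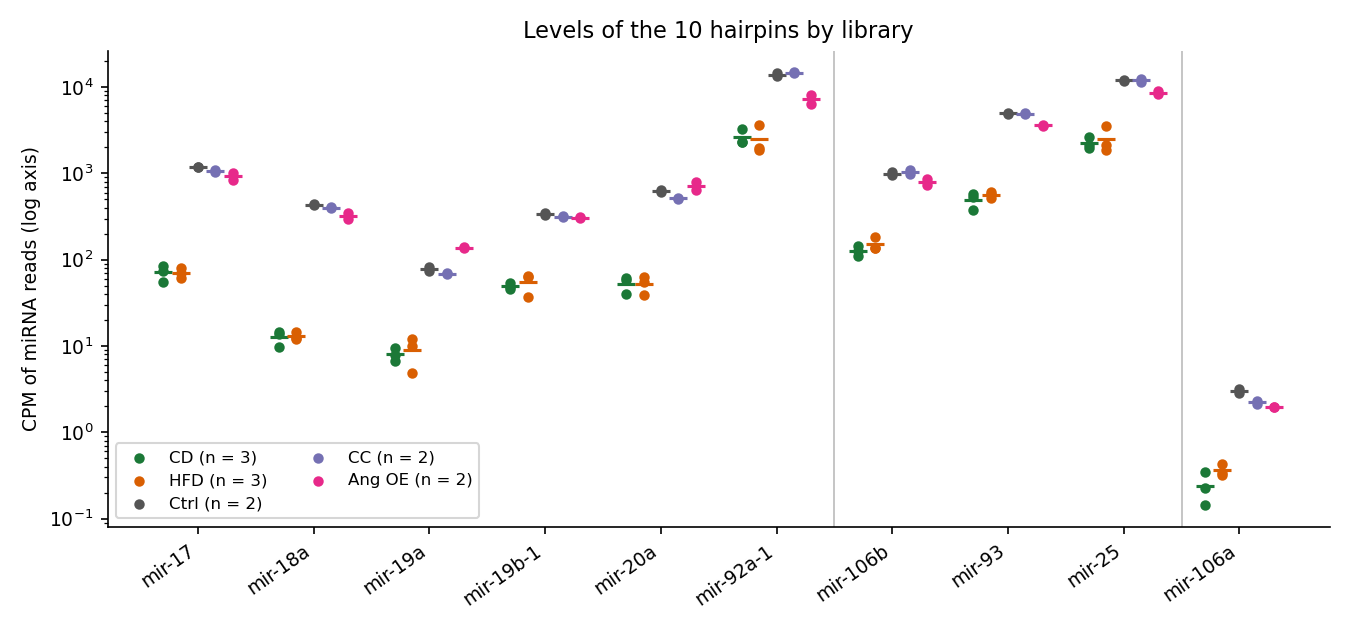
Levels of the 10 hairpins in CPM (log axis), with a point for each library and a dash for the group mean (CD and HFD, n = 3; Ctrl, CC and Ang OE, n = 2). In every hairpin the sperm points lie below the TM4 points, the CD and HFD points overlap, and mir-19a and mir-20a are the hairpins with Ang OE at the top.

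The hairpins of a cluster were far from equal although they are transcribed together. In Ctrl cells mmu-mir-92a-1 gave 84.5% and 83.4% of the mir-17-92 reads and mmu-mir-17 gave 6.85% and 7.40%. In CD sperm the shares of mmu-mir-92a-1 were 93.6%, 93.9% and 91.7% and those of mmu-mir-17 were 2.22%, 2.38% and 2.97%. mmu-mir-92a-1 exceeded mmu-mir-17 by a factor of 23.2 to 52.1 in sperm, 11.3 to 13.9 in Ctrl and CC, and 6.21 and 9.67 in Ang OE, so sperm and TM4 cells did not overlap in this ratio. In the mir-106b-25 cluster mmu-mir-25 gave 71.2% to 82.6% of the reads in sperm and 65.1% to 67.8% in TM4 cells, and mmu-mir-93 gave 13.2% to 23.6% and 26.3% to 29.1%. The summed levels of the clusters were of similar size: the ratio of the mir-17-92 sum to the mir-106b-25 sum was 1.01, 1.05 and 0.910 in CD, 0.875, 0.774 and 0.802 in HFD, 0.899 to 0.983 in Ctrl and CC, and 0.704 and 0.779 in Ang OE. Ligation and amplification favour some miRNAs over others in such libraries, so levels of different hairpins can be compared across libraries more safely than with each other.

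**Figure D2:**
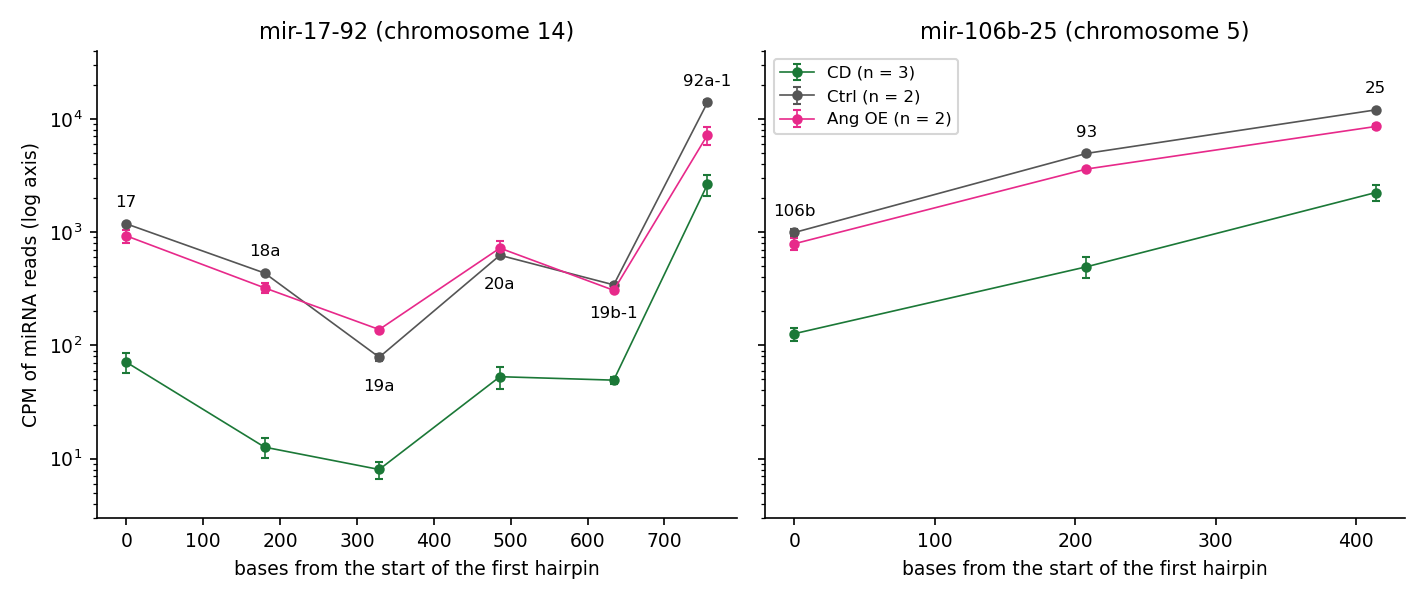
Mean level with SD (CPM, log axis) of each hairpin against its distance from the first hairpin of the cluster, for CD sperm (n = 3), Ctrl cells and Ang OE cells (n = 2 each). The last hairpin leads in both clusters, the CD line runs below the Ctrl line throughout, and the Ang OE line lies above the Ctrl line at mir-19a and mir-20a only.

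Control sperm and non-treated TM4 cells were compared to describe where the clusters are abundant. Each of the 9 hairpins other than mmu-mir-106a was higher in Ctrl cells than in CD sperm by edgeR's quasi-likelihood test, with adjusted p-values (Benjamini-Hochberg) from 1.95e-10 for mmu-mir-18a to 3.98e-05 for mmu-mir-92a-1. Of all 648 hairpins tested, 41.8% were called higher at an adjusted p under 0.05 and 37% lower. The largest log2 fold change was that of mmu-mir-18a, 4.18 (SE 0.21), followed by mmu-mir-17 with 3.13 (SE 0.20). The smallest were those of mmu-mir-92a-1, 1.48 (SE 0.24), and mmu-mir-25, 1.498 (SE 0.22). On the plain CPM scale the ratio of the means was 34.5 for mmu-mir-18a and 5.29 for mmu-mir-92a-1. The median log2 difference of these 9 was 2.34, against 0.44 over all hairpins tested. The median of all hairpins moved to 1.37 with total miRNA reads as library size and to -0.06 with DESeq2's size factors, and that of the 9 moved with it, to 3.29 and 1.84. The number called higher stayed at 9 of 9 in both cases. With a correction for base composition averaged over the mature sequences of a hairpin, for which 76.7% of the hairpins had a sequence, the medians were -0.22 over all hairpins and 1.43 over the 9, and again 9 of 9 were called higher, from 0.698 for mmu-mir-25 to 3.86 for mmu-mir-18a.

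mmu-mir-106a was left out of these counts and medians because it passed the read filter only through the TM4 libraries, so its call of higher was bound to favour a difference. It had 192 reads over the 2 Ctrl libraries and 9 over the 3 CD libraries, a ratio of 12.9 in CPM with an exact 95% interval from 6.67 to 28.7 that covers counting error only. Sperm and TM4 cells differ in tissue and in every step of sampling, so this comparison describes these libraries. The 5 hairpins whose profile over the 12 libraries was nearest to the mean profile of mir-17-92 were mmu-mir-199a-2, mmu-mir-151, mmu-mir-199a-1, mmu-mir-27a and mmu-mir-152, with root mean square differences of 0.235, 0.237, 0.238, 0.238 and 0.284 on the log2(CPM + 1) scale, taken over hairpins with a mean of at least 100 CPM.

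Of 8 other hairpins of the same families listed, which were the other hairpins of the X cluster and the other carriers of the AUUGCAC seed, 6 were tested between Ctrl cells and CD sperm. Of these, 2 were called higher and 3 lower, against 41.8% and 37% of all 648 hairpins tested. Of the 3 lower, mmu-mir-20b and mmu-mir-363 passed the read filter only through the sperm libraries, so their tests were bound to favour a lower value in TM4 cells. mmu-mir-19b-2 and mmu-mir-92a-2, which share their mature miRNA with members, were higher by 1.82 (SE 0.27) and 0.80 (SE 0.20) on the log2 scale. mmu-mir-363, the last hairpin of the X cluster, had 26, 11 and 7 reads in the CD libraries and 0 in each of the 6 TM4 libraries. Its CD mean of 1.12 CPM was 23.8 times a floor of 3 reads over the 2 Ctrl libraries, 0.047 CPM. mmu-mir-20b of the same cluster had 10, 3 and 11 reads in CD and 0 in both Ctrl libraries, and its CD mean was 12.8 times the floor. Both ratios leave out the spread of the few reads in CD and are not lower bounds. mmu-mir-92b was called lower, with a log2 fold change of -1.13 (SE 0.27), but its 145.3 and 152 CPM in Ctrl lay inside the range of 121.8 to 195 CPM in CD.

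Between the diets none of the members differed beyond the spread of the libraries. Of the 9 hairpins tested, 0 were called, each with an adjusted p of 0.989 in edgeR, where 0% of all hairpins tested were called higher and 0% lower, with 31 of all hairpins at an unadjusted p under 0.05. DESeq2 called 8 hairpins and 0 members. The log2 fold changes ran from -0.20 (SE 0.25) for mmu-mir-92a-1 to 0.15 (SE 0.19) for mmu-mir-106b, with standard errors from 0.18 for mmu-mir-93 to 0.36 for mmu-mir-19a. The members' median was 0.04, against -0.01 over all hairpins tested. At this spread, differences of the size of these standard errors could not be seen. mmu-mir-106a was not tested because no sperm library reached 10 of its reads. The 5 other hairpins of the families that were tested gave 0 calls.

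HFD replicate 1 set the ends of the range for several hairpins. It was the highest of the 6 sperm libraries for mmu-mir-92a-1, mmu-mir-25 and mmu-mir-106b and the lowest for mmu-mir-19a, mmu-mir-19b-1 and mmu-mir-20a. Red blood cell hairpins summed to 50595 CPM in it and to 25239 to 36163 CPM in the other 5 sperm libraries. mir-451a, which is made in red cell precursors, was at 2420 CPM in it and at 1155 to 2151 CPM in the others. The mir-17-92 miRNAs and mir-25 are also abundant in blood cells, and the part of this RNA in the values was not tested. Of the 4 white blood cell hairpins mir-142a did not overlap between the diets, at 484 to 575 CPM in CD and 688 to 1179 CPM in HFD, whereas mir-223, mir-150 and mir-155 overlapped, and their part was not tested either. Without HFD replicate 1, mmu-mir-92a-1 was at -0.46 (adjusted p = 0.193 in edgeR), mmu-mir-25 at -0.16 (adjusted p = 0.608), mmu-mir-19a at 0.43 (adjusted p = 0.407) and mmu-mir-20a at 0.17 (adjusted p = 0.691) on the log2 scale, and the number of members called stayed at 0.

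CC was used to ask what inhibition of AMPK does to small RNAs. It left the 10 members without a call, while 2.25% of the 533 hairpins tested were called higher and 1.88% lower by edgeR. The nearest to a call was mmu-mir-20a, with a log2 fold change of -0.28 (SE 0.11), an unadjusted p of 0.022 and an adjusted p of 0.192 in edgeR. mmu-mir-106a gave -0.43 (SE 0.21) and mmu-mir-19a -0.19 (SE 0.12). The mir-106b-25 hairpins moved least, with 0.06 (SE 0.12) for mmu-mir-106b, -0.01 (SE 0.09) for mmu-mir-93 and 0.01 (SE 0.10) for mmu-mir-25. The members' median was -0.11, against -0.03 over all hairpins. Of the 4 other family hairpins tested, 0 were called.

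Ang OE gave opposite changes within the mir-17-92 cluster. mmu-mir-19a rose 2.13-fold and mmu-mir-20a 1.396-fold, mmu-mir-92a-1 fell to 0.626 of Ctrl, and the other 7 members did not pass the test. In edgeR the log2 fold changes were 1.09 (SE 0.12, adjusted p = 2.16e-06) for mmu-mir-19a, 0.48 (SE 0.11, adjusted p = 0.00227) for mmu-mir-20a and -0.68 (SE 0.12, adjusted p = 0.000286) for mmu-mir-92a-1. Of the 533 hairpins tested 24.2% were called higher and 14.1% lower, so 2 and 1 of 10 members are near the background. The members' median was -0.12, against 0.06 over all hairpins. Both rises lost their call when each library was corrected for base composition averaged over the mature sequences of a hairpin, with mmu-mir-19a at 0.27 (adjusted p = 0.093 in edgeR) and mmu-mir-20a at -0.044 (adjusted p = 0.765), while mmu-mir-92a-1 stayed called at -0.62 (adjusted p = 0.00217). In the Ang OE libraries the smooth muscle hairpins, 2 of 3 listed being in the files, summed to 94556 and 129039 CPM, against 49714 to 73465 CPM in Ctrl and CC. This sum is nearly all mir-143, while mir-145a, at 1404 and 1196 CPM in Ang OE, lay within the 1171 to 1444 CPM of Ctrl and CC. The 8 germ cell hairpins summed to 2045 and 1932 CPM, against 934 to 1050.3 CPM, nearly all of it mir-34c, which is not specific to germ cells, at 1956 and 1834 CPM in Ang OE and 853 to 980 CPM in Ctrl and CC, while mir-743a and mir-880 were at 0 in every TM4 library and mir-741, mir-871 and mir-881 under 1 CPM. The epithelial hairpins were at 2.38 and 1.45 CPM, against 1.28 to 1.94 CPM in Ctrl and CC. The red blood cell hairpins were at 1784 and 1762 CPM, against 2737 to 2857 CPM in Ctrl and 1879 to 1956 CPM in CC. The part of these differences in the members' changes was not tested.

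**Figure D3:**
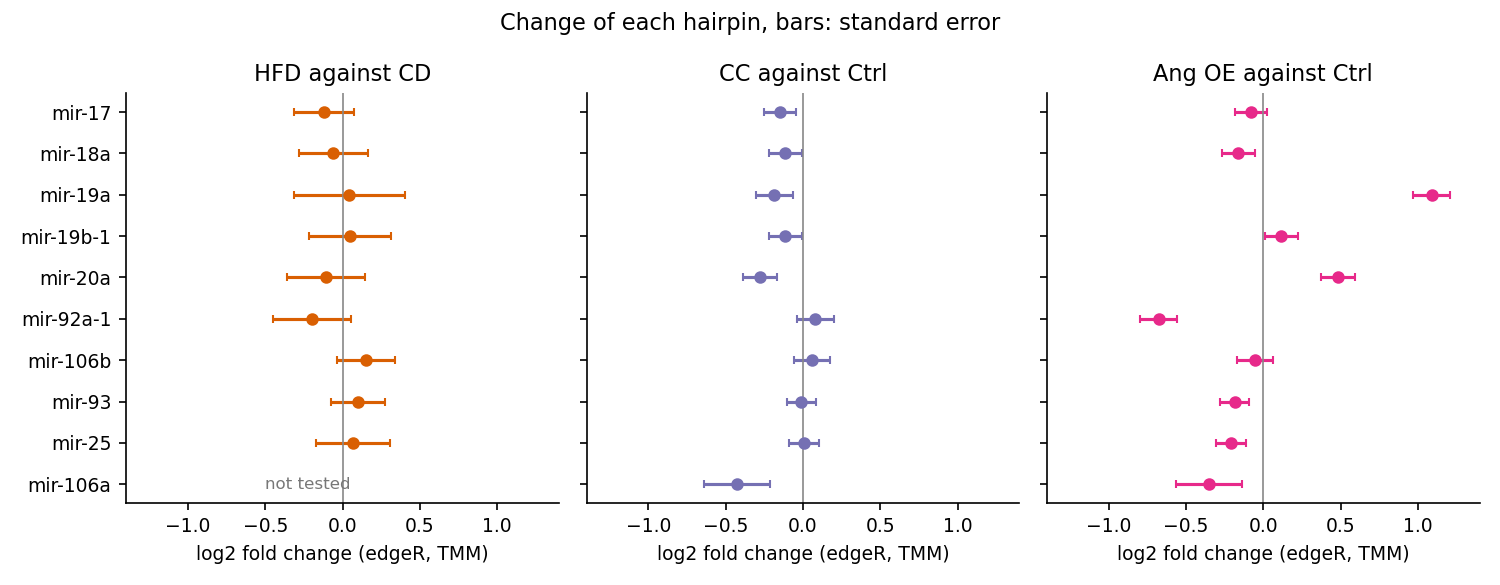
Log2 fold change from edgeR with TMM normalization of each hairpin for HFD against CD sperm (n = 3 each), CC against Ctrl and Ang OE against Ctrl TM4 cells (n = 2 each), with bars for the standard error. The 9 bars of HFD all cross 0, the CC values stay within 0.43 of 0, and Ang OE spreads from -0.68 for mir-92a-1 to 1.09 for mir-19a.

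The rest of mir-17-92 lay between, with -0.16 (SE 0.11) for mmu-mir-18a, -0.08 (SE 0.10) for mmu-mir-17 and 0.12 (SE 0.11) for mmu-mir-19b-1. mmu-mir-19a and mmu-mir-19b-1 share their seed and all but 1 base, yet the first rose and the second was at 0.12. In mir-106b-25 the values were -0.05 (SE 0.12) for mmu-mir-106b, -0.18 (SE 0.09) for mmu-mir-93 and -0.21 (SE 0.10, adjusted p = 0.102 in edgeR) for mmu-mir-25, and mmu-mir-106a gave -0.35 (SE 0.21). Seen by share, mmu-mir-92a-1 gave 70.8% and 78.4% of the mir-17-92 reads in Ang OE, against 83.4% to 86.2% in the Ctrl and CC libraries. mmu-mir-19a gave 1.58% and 1.31%, against 0.399% to 0.482%, and mmu-mir-20a 8.95% and 6.26%, against 2.92% to 3.98%. The shares of the other 3 hairpins were higher too, with 11.4% and 8.11% for mmu-mir-17 against 6.18% to 7.40%, 3.86% and 2.89% for mmu-mir-18a against 2.32% to 2.66%, and 3.40% and 3.00% for mmu-mir-19b-1 against 1.84% to 2.07%. A lower level of mmu-mir-92a-1, which holds most of the reads, raises every other share, so the shares are no separate evidence of a rise.

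How many members were called lower did depend on the scaling. With total miRNA reads as library size the median of all hairpins moved from 0.06 to -0.21, 129 hairpins called higher and 75 lower became 81 and 139, and 8 members were called, 1 higher and 7 lower. In that setting mmu-mir-20a was at 0.21 and no longer called, and mmu-mir-19b-1 turned to -0.16. mmu-mir-20a was also no longer called without Ang OE replicate 1, at 0.28 (adjusted p = 0.100 in edgeR), and Ang OE replicate 1 was the one with the higher mmu-mir-20a and the lower mmu-mir-92a-1.

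The difference between Ang OE and CC was tested by its own contrast and gave the same 3 calls. mmu-mir-19a was 1.27 (SE 0.12, adjusted p = 3.54e-07 in edgeR) higher in Ang OE than in CC on the log2 scale, mmu-mir-20a 0.76 (SE 0.11, adjusted p = 3.47e-05) higher, and mmu-mir-92a-1 was at -0.76 (SE 0.12, adjusted p = 8.74e-05). In this contrast 26.3% of the hairpins were called higher and 15.2% lower. With the correction for base composition mmu-mir-20a was at 0.21 (adjusted p = 0.127 in edgeR) and no longer called, and mmu-mir-19a was at 0.36 (adjusted p = 0.026). The contrast shares the Ang OE libraries with the comparison to Ctrl and is not a separate experiment.

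Of the 4 other family hairpins tested in Ang OE, 1 was called higher and 1 lower, which is near the 24.2% and 14.1% over all hairpins. mmu-mir-32, a carrier of the AUUGCAC seed outside the clusters, was at 16.2 and 15.6 CPM in Ctrl and 24.9 and 32.7 CPM in Ang OE and rose by 1.13 (SE 0.19) on the log2 scale. mmu-mir-92a-2 was at 1365 and 1284 CPM in Ctrl and 761 and 829.6 CPM in Ang OE, with a log2 fold change of -0.46 (SE 0.10).

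Base composition of the main mature miRNA is set beside the changes in Ang OE as a description. The mature miRNA with the fewest G and C bases was that of mmu-mir-19a, with 34.8%, and it rose most. Those of mmu-mir-20a and mmu-mir-19b-1 followed with 39.1% each and were the other 2 hairpins above 0. mmu-mir-106b (42.9%), mmu-mir-18a (43.5%), mmu-mir-17 and mmu-mir-106a (47.8% each), mmu-mir-25 (50%) and mmu-mir-93 (52.2%) lay between -0.35 and -0.05. mmu-mir-92a-1, with 57.1%, fell most. Spearman's rho between this share and the log2 fold change was -0.915 over the 10 hairpins in Ang OE and 0.53 in CC, for hairpins that share libraries, transcripts and partly sequence. With the share averaged over the mature sequences found for each hairpin it was -0.661 in Ang OE and 0.685 in CC. For mmu-mir-19a only the main mature miRNA was found, so its share was the same in both. Outside the members mmu-mir-92b, whose main mature miRNA has 63.6%, was at -0.08 (SE 0.12) and not called, and mmu-mir-32, with 31.8%, rose.

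A check of base composition over all hairpins was void, because sequences for only 73.9% of the 533 hairpins tested were in the tables used. The correction of each library had the same limit and was chosen after seeing the data. It used the share averaged over the mature sequences that the tables hold for a hairpin, since the main arm was not measured, and on that average mmu-mir-92a-1 has 52.5%, less than mmu-mir-106b with 53.2%, mmu-mir-25 with 54.5% and mmu-mir-93 with 55.6%. In it 2 members were called against Ctrl, both lower, which were mmu-mir-92a-1 and mmu-mir-18a, the latter at -0.28 (adjusted p = 0.042 in edgeR). Against CC mmu-mir-92a-1 stayed called at -0.71. The share of the main mature miRNA was not corrected for, and its part in the changes was not tested.

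**Figure D4:**
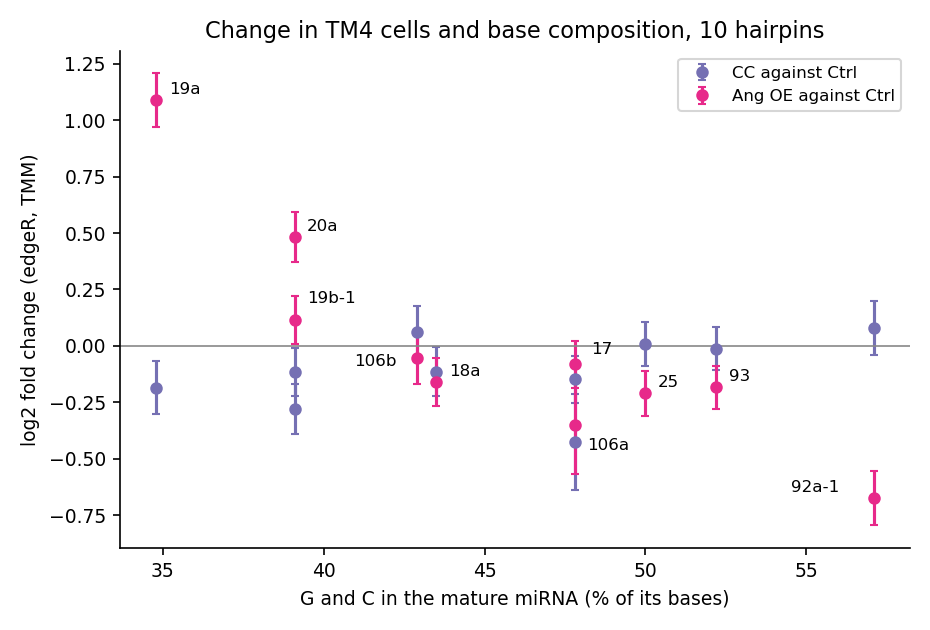
Log2 fold change (edgeR, with SE) of the 10 hairpins in CC and in Ang OE against Ctrl TM4 cells (n = 2 libraries each), set against the G and C share of the main mature miRNA in percent of its bases. The Ang OE points fall from 1.09 at 34.8% (mir-19a) to -0.68 at 57.1% (mir-92a-1), and the CC points show no such fall.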

How the data were processed

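The 12 files hold, per library, estimated counts of reads per miRNA hairpin, which the authors made with SPORTS1.1: reads were trimmed with Trimmomatic 0.40 after FastQC 0.12.0, kept at 15 to 45 nt and annotated with 1 mismatch, and a read matching several hairpins was divided among them. The deposited estimated counts are not normalized, and the submitters' processing notes name build mm10. The libraries were made with a TruSeq kit from total RNA and then size-selected.

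Reads with and without a genome match were added and rounded. The filter asked for 10 reads or more in 3 sperm libraries, or in 2 libraries of a fit with TM4 cells. Tests used the quasi-likelihood method of edgeR 4.0.16 (R 4.3.3) with TMM over miRNAs, with adjusted p over all hairpins tested and a threshold of 0.05. The diets were fitted on their 6 libraries, TM4 groups on 6 and the comparison with sperm on 12. In simulated data with 200 hairpins changed by 2 on the log2 scale, 96% were called for HFD against CD, with 8 false calls, and 93% for Ang OE against Ctrl, with 10. For CC against Ctrl 91.5% were called, for Ang OE against CC 95% and for Ctrl cells against CD sperm 88.5%. Within sperm and within TM4 cells the members changed by less than this, so recovery of changes of their size was not tested. Alternatives were DESeq2 1.42.0, other library sizes, no filter, genome-matched reads, hairpins with the same mature miRNA added, a replicate block, fewer groups and each library left out. A lowess correction for the G and C share, averaged over the mature sequences in the tables (more than 1 for 592 of 833 hairpins), fitted per library in edgeR, and a crossed block were added after seeing the data. The authors adjusted TM4 batches that the labels do not name, so this was not repeated. Members, lists and tests were chosen with earlier results of these data known. Values are given for all 10 members, for other family hairpins where called and for the 5 hairpins of nearest profile. Sequences were found in RefSeq tables for all 10 members and the 8 other family hairpins. Python 3.11.15 and matplotlib 3.10.9 were used.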

Additional observations from a re-analysis of the deposited data

Results flagged for a closer look

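For 3 hairpins the effect of Ang OE differed from that of CC by the test of the difference itself, edgeR's contrast of the Ang OE and CC libraries. The log2 difference was 1.27 for mmu-mir-19a (adjusted p = 3.54e-07), 0.76 for mmu-mir-20a (adjusted p = 3.47e-05) and -0.755 for mmu-mir-92a-1 (adjusted p = 8.74e-05). In this contrast 26.3% of all hairpins were called higher and 15.2% lower, so 2 and 1 of 10 members are near the background. The main mature miRNAs of these hairpins have G and C shares of 34.8%, 39.1% and 57.1%, whose part was not tested. With a correction for the share averaged over the mature sequences of each hairpin (34.8%, 40.0% and 52.5%) the differences were 0.36 (adjusted p = 0.026 in edgeR), 0.21 (adjusted p = 0.127) and -0.71 (adjusted p = 0.000666), so that of mmu-mir-20a was no longer called. Groups of 2 or 3 libraries are too small for a test of single outlying libraries.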

How the results depend on the processing

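The number of members called stayed at 0 for HFD against CD and for CC against Ctrl, and, with mmu-mir-106a left out, at 9 for Ctrl cells against CD sperm, under every alternative run. For Ang OE against Ctrl, 3 members were called, and 8 with total miRNA reads as library size, 5 with clean reads without rRNA and 6 with DESeq2, where 204, 220, 201 and 196 of the 533 hairpins were called. For Ang OE against CC, 3 were called, and 7, 5 and 5 in the same settings, with 221, 226, 222 and 204 over all hairpins. Leaving out 1 library at a time gave 2 to 4 calls for the first and 3 to 4 for the second. A correction for base composition, averaged over the mature sequences of a hairpin, chosen after seeing the data and resting on sequences for 73.9% of the hairpins tested, gave 2 calls in each, and mmu-mir-19a at 0.27 and mmu-mir-20a at -0.044 against Ctrl were no longer called. Apart from this correction mmu-mir-19a and mmu-mir-92a-1 kept their direction and their call in both comparisons in all of these, with log2 fold changes against Ctrl of 0.81 to 1.145 and of -0.95 to -0.56. The scaling moves all hairpins together, and for the other settings the cause was not tested.

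Apart from mmu-mir-20a under that correction, directions turned for hairpins that were not called. For HFD against CD, mmu-mir-18a was at 0.048 with total miRNA reads, and mmu-mir-17, mmu-mir-18a and mmu-mir-20a were at 0.074, 0.14 and 0.090 with clean reads. For CC against Ctrl, mmu-mir-93 was at 0.017 with DESeq2 and 0.029 with no filter. For Ang OE against Ctrl, mmu-mir-19b-1 was at -0.16 with total miRNA reads and -0.029 with clean reads. For Ang OE against CC, total miRNA reads gave -0.20 for mmu-mir-17, -0.039 for mmu-mir-19b-1 and -0.19 for mmu-mir-106a, clean reads gave -0.076 for mmu-mir-17 and -0.0758 for mmu-mir-106a, and DESeq2 gave -0.030 and -0.021. The correction for base composition gave 0.0038 for mmu-mir-18a and -0.136 for mmu-mir-19a for HFD against CD, -0.227 for mmu-mir-19b-1 and 0.029 for mmu-mir-106b for Ang OE against Ctrl, and -0.0978 for mmu-mir-19b-1 for Ang OE against CC.

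With 1 library left out, the log2 fold changes for HFD against CD ranged from -0.15 to 0.018 for mmu-mir-17, -0.097 to 0.15 for mmu-mir-18a, -0.14 to 0.43 for mmu-mir-19a, -0.13 to 0.36 for mmu-mir-19b-1, -0.20 to 0.17 for mmu-mir-20a, -0.46 to 0.032 for mmu-mir-92a-1 and -0.16 to 0.31 for mmu-mir-25. For CC against Ctrl the ranges were -0.024 to 0.15 for mmu-mir-106b, -0.062 to 0.024 for mmu-mir-93 and -0.039 to 0.031 for mmu-mir-25. For Ang OE against Ctrl, mmu-mir-106b ranged from -0.23 to 0.046. For Ang OE against CC, mmu-mir-17 ranged from -0.13 to 0.15 and mmu-mir-18a from -0.20 to 0.00024.

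With the replicate number as a block the members called stayed at 0 for HFD and for CC, at 3 for Ang OE against Ctrl and against CC and, with mmu-mir-106a left out, at 9 between Ctrl cells and CD sperm, and mmu-mir-19a turned to -0.021 for HFD against CD. The numbers were not taken to pair the libraries: deviations from the group means correlated at -0.334, -0.365 and 0.184 across hairpins for the diets, -0.0785 for Ctrl and CC, -0.231 for Ctrl and Ang OE and 0.32 for CC and Ang OE. A block with the Ang OE numbers exchanged, added after seeing the data, gave 3 calls. With 2 libraries per TM4 group and few reads of mmu-mir-106a, small differences were not detectable. With clean reads without rRNA as denominator, the mir-17-92 sum in Ang OE was at -0.66 relative to Ctrl on the log2 scale and the mir-106b-25 sum at -0.34, against -0.79 and -0.47 of miRNA reads.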

Other observations

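The ratio of the mir-17-92 sum to the mir-106b-25 sum was 0.910 to 1.05 in the CD libraries and 0.774 to 0.875 in the HFD libraries, without overlap. This ratio was noticed after the values were seen and was not tested. Hairpins with an adjusted p of 0.989 in edgeR, such as mmu-mir-186 and mmu-mir-222, also did not overlap between the diets. Of the 4 white blood cell hairpins mir-142a also lay apart, at 484 to 575 CPM in CD and 688 to 1179 CPM in HFD, while the other 3 overlapped, and its part in the ratio was not tested. The ratio of mmu-mir-92a-1 to mmu-mir-25, the leading hairpins with the same seed, was 1.09 to 1.25 in CD and 0.918 to 1.01 in HFD. It was 0.766 and 0.912 in Ang OE against 1.13 to 1.28 in the Ctrl and CC libraries. These hairpins hold most of the reads of their clusters, so their ratio is not an observation separate from that of the sums. The mmu-mir-363 hairpin, on the same X transcript as mmu-mir-106a, had 7 to 30 reads in each sperm library and 0 in each TM4 library, whereas mmu-mir-106a had 2 to 6 and 59 to 102.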
